A study of Mus musculus with 6 samples.

Results

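The genes described here are 9 inhibitors and brakes of the cell cycle, Cdkn1a, Cdkn1b, Cdkn1c, Cdkn2d, Btg1, Btg2, Ccng1, Ccng2 and Gadd45a, of the 27998 genes in the count matrices of mouse small-intestinal epithelium. They were chosen by symbol for their order of level from crypt to villus and in secretory cells and for the comparison of genotypes, partly because Cdkn1a and Cdkn1c differed between genotypes. Each of the 9 symbols matched a single gene in all 6 libraries, and all 9 members are described. Because levels across classes and between genotypes chose them, those levels are given as a description, and where a fit over all genes is quoted, its calls of members are drawn from the values that chose them and support nothing.

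Cyclin-dependent kinases drive cells through the division cycle, and inhibitor proteins bind them and stop it. In the intestine, stem cells at the crypt base feed rapidly dividing transit-amplifying cells, which stop dividing as they become absorptive enterocytes or secretory cells and leave the crypt. Cdkn1a, Cdkn1b and Cdkn1c encode the Cip/Kip inhibitors p21, p27 and p57, which act on many cyclin-kinase complexes, whereas the Cdkn2d product p19 acts on the kinases CDK4 and CDK6. Btg1 and Btg2 belong to a family that slows proliferation and recruits the enzymes that shorten mRNA tails. Ccng1 and Ccng2 encode G-type cyclins that do not drive division, the first a known p53 target and the second known to be high in resting cells. Gadd45a is a stress-induced gene whose product binds the mitotic kinase complex and the replication clamp.

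Single-cell libraries were made from the small-intestinal epithelium of C57BL/6J mice aged 8 weeks, with droplet capture and 3' end counting of unique molecular identifiers (UMIs, tags that mark each captured mRNA molecule once). Of 6 libraries, 3 are labelled Itgb7 KO and 3 wild-type (WT), numbered 1 to 3 in each genotype. Itgb7 encodes the beta-7 chain of the integrin that holds T cells at the epithelium, so the comparison asks how the epithelium differs where that integrin is lacking. The labels give neither the kind of Itgb7 allele, the stretch of intestine nor the number of mice in a library, and name no treatment. The deposited files carry library serial numbers, and nothing says what these count.

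The libraries held 2797, 5738 and 4642 cell barcodes in Itgb7 KO and 2773, 5058 and 5145 in WT, with total UMIs of 28475253 to 76133693 and between 12 and 42 barcodes shared by any pair. After filters and doublet removal 25073 cells remained, of which 23332 fell in clusters that carried the markers of a class, so that "stem-like" and the other class names below mean clusters named by their markers. Levels are CPM, UMIs of a gene scaled to a library total of 1000000 UMIs, of the cells of a class summed within a library, and differences are in log2(CPM + 1). The 2 libraries numbered 1 stood apart: they were the deepest per cell, and Paneth marker genes made up 53251 CPM of all epithelial UMIs in Itgb7 KO library 1 and 85755 CPM in WT library 1, against 2862 to 3854 CPM in the other 4. Markers of T cells, B or plasma cells, macrophages or dendritic cells and stromal cells summed to at most 7.0 CPM of epithelial UMIs in any library, with T cell markers at 1.34 to 1.48 CPM in Itgb7 KO and 1.88 to 3.86 CPM in WT. Itgb7 itself was at 0.278, 0.461 and 0.435 CPM in the libraries labelled Itgb7 KO and at 0.0421, 0.071 and 0.0177 CPM in WT. Its direction goes against the label, without overlap, and Itgb7 was among the genes called by DESeq2 over all epithelial cells (adjusted p under 0.05). A 3' tag can lie outside a deletion, but why the level was higher was not tested. Epithelial cells hardly express the gene, so these values do not check the labels, on which every genotype statement below rests.

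In mm10 the Cdkn1a gene (ENSMUSG00000023067) spans chr17:29090976-29100727 on the plus strand, Cdkn1c (ENSMUSG00000037664) chr7:143458339-143461050 on the minus strand, Ccng1 (ENSMUSG00000020326) chr11:40748552-40755311 on the minus strand and Btg2 (ENSMUSG00000020423) chr1:134075170-134079120 on the minus strand. Promoter windows of 8 of the members are in the RefSeq table for GRCm38.p6, and Cdkn1c has none. The 3 shown here, each the 250 bases before a transcription start, are the ones with a match, in capitals, to an element known from the p53 response or from the response to cyclic AMP and other stimuli. Cdkn1a has 2 windows, of which the first, shown here, and the Ccng1 window hold a p53 element (a 20-base palindromic motif searched with at most 1 mismatch, a tolerance chosen after the Cdkn1a sequence was seen), and the Btg2 window holds the cyclic AMP response element TGACGTCA.
Cdkn1a, chr17:29090729-29090978, plus strand: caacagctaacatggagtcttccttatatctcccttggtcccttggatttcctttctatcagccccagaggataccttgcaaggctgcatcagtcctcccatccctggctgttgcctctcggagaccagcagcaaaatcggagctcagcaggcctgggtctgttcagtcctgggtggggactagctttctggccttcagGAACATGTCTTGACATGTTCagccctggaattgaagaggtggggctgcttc
Ccng1, chr11:40755287-40755536, minus strand: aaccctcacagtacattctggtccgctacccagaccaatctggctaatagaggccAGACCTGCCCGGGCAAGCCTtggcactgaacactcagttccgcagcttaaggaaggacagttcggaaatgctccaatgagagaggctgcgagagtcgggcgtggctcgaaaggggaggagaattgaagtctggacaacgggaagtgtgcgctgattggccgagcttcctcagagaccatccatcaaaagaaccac
Btg2, chr1:134079156-134079405, minus strand: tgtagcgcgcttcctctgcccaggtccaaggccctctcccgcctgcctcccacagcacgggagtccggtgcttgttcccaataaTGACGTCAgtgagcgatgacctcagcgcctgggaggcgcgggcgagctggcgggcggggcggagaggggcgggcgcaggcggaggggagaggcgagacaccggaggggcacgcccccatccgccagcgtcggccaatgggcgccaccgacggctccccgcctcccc
Searched on both strands of 32851 windows of 300 bases (250 before and 50 after a start), the p53 element was in 29 windows, or 0.0883%, and TGACGTCA in 588, or 1.79%. The second Cdkn1a window and the windows of the other members held neither of them. A match is a string of letters, from which nothing is drawn about the factor. Counted to the first base of the match, the elements begin 51 bases (Cdkn1a), 195 bases (Ccng1) and 166 bases (Btg2) before the start.

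Going from crypt to villus, 4 members were several-fold higher in mature enterocyte-like cells than in stem-like cells: Cdkn1a, Gadd45a, Ccng2 and Btg2. Cdkn1a was at 248.6, 337 and 434 CPM (lowest, median and highest of 6 libraries) in mature enterocyte-like cells and at 25, 36.4 and 50.5 CPM in stem-like cells. The ranges were far apart, and every library was higher, by 3.10 ± 0.48 on the log2 scale (mean ± SD, n = 6), or 8.59-fold. Stem-like cells averaged 38.1 ± 9.16 CPM, transit-amplifying-like cells 89.1 ± 15.3, lower-villus enterocyte-like cells 174 ± 21.5 and mature enterocyte-like cells 334 ± 71.1, and each of these steps was larger than 2 SD of the difference within a library.

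Gadd45a was at 111, 146 and 193 CPM in mature enterocyte-like cells and at 28.2, 35.8 and 47.7 CPM in stem-like cells, a difference of 2.01 ± 0.22. Most of it lay beyond the dividing cells, since transit-amplifying-like cells averaged 43.8 ± 6.87 CPM and lower-villus enterocyte-like cells 78.1 ± 12.1 CPM. Btg2 was at 175, 257 and 326 CPM in mature enterocyte-like cells and at 76.6, 78.3 and 92.3 CPM in stem-like cells. It was lowest in transit-amplifying-like cells, at 66.9 ± 2.34 CPM, and its difference of 1.62 ± 0.32 between the ends came almost wholly from the last step, since lower-villus enterocyte-like cells averaged 89.3 ± 7.35 CPM. For every member, that last step leads to a single cluster led by Apoa4. The lower-villus class includes a cluster led by Fabp6, a gene of the distal intestine. Its clusters led by Reg1 and by Spink1 had more mature than lower-villus markers among their top 50 genes (9 against 6, and 6 against 3). The parts of gut region and maturity in the last step were not tested.

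Ccng2 was at 37.8, 77.8 and 132 CPM in mature enterocyte-like cells and at 10.55, 19.9 and 34.6 CPM in stem-like cells. These ranges do not overlap, but only narrowly, because both libraries numbered 1 held less of it in nearly every class than the other 4 did. Within a library the difference was 1.83 ± 0.26 and of the same sign in all 6. Over all epithelial cells Ccng2 was at 10.6, 33.7 and 41.2 CPM in Itgb7 KO libraries 1, 2 and 3 and at 11.1, 31.3 and 24.6 CPM in WT libraries 1, 2 and 3, and Cdkn1b and Btg1 were likewise lowest in the pair numbered 1. The part that the depth or the Paneth RNA of that pair has in this was not tested.

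The fifth gene higher in mature enterocyte-like cells of all 6 libraries was Btg1, by only 0.27 ± 0.14, which is within 2 SD of the difference. It was at 272 ± 60.4 CPM there, 228 ± 67.5 CPM in stem-like cells and 176 ± 47.1 CPM in transit-amplifying-like cells.

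A second set ran the other way. Cdkn1b, whose product p27 is largely controlled through its breakdown, was at 10.1, 16.7 and 26.2 CPM in mature enterocyte-like cells and at 22.6, 35.8 and 49.4 CPM in stem-like cells. It was lower in all 6 libraries, with a log2 difference of -1.07 ± 0.15 and the main drop between transit-amplifying-like cells (28.3 ± 8.50 CPM) and lower-villus enterocyte-like cells (16.6 ± 6.12 CPM). Ccng1 was also lower in 6 of 6 libraries but within 2 SD (-0.46 ± 0.36), at 29.3 ± 3.06 CPM in mature enterocyte-like and 41.6 ± 10.4 CPM in stem-like cells.

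Cdkn2d followed neither order and, of these 4 classes, was highest in the dividing cells. Stem-like cells averaged 10.0 ± 0.60 CPM, transit-amplifying-like cells 25.7 ± 2.99 CPM, lower-villus enterocyte-like cells 4.76 ± 0.51 CPM and mature enterocyte-like cells 5.97 ± 1.41 CPM. The step up was 1.27 ± 0.15 and the step down that followed was -2.21 ± 0.14, both of the same sign in 6 of 6 libraries. Cdkn1c stayed between 4.10 and 4.57 CPM on average in these 4 classes, with differences smaller than their spread.

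**Figure D1:**
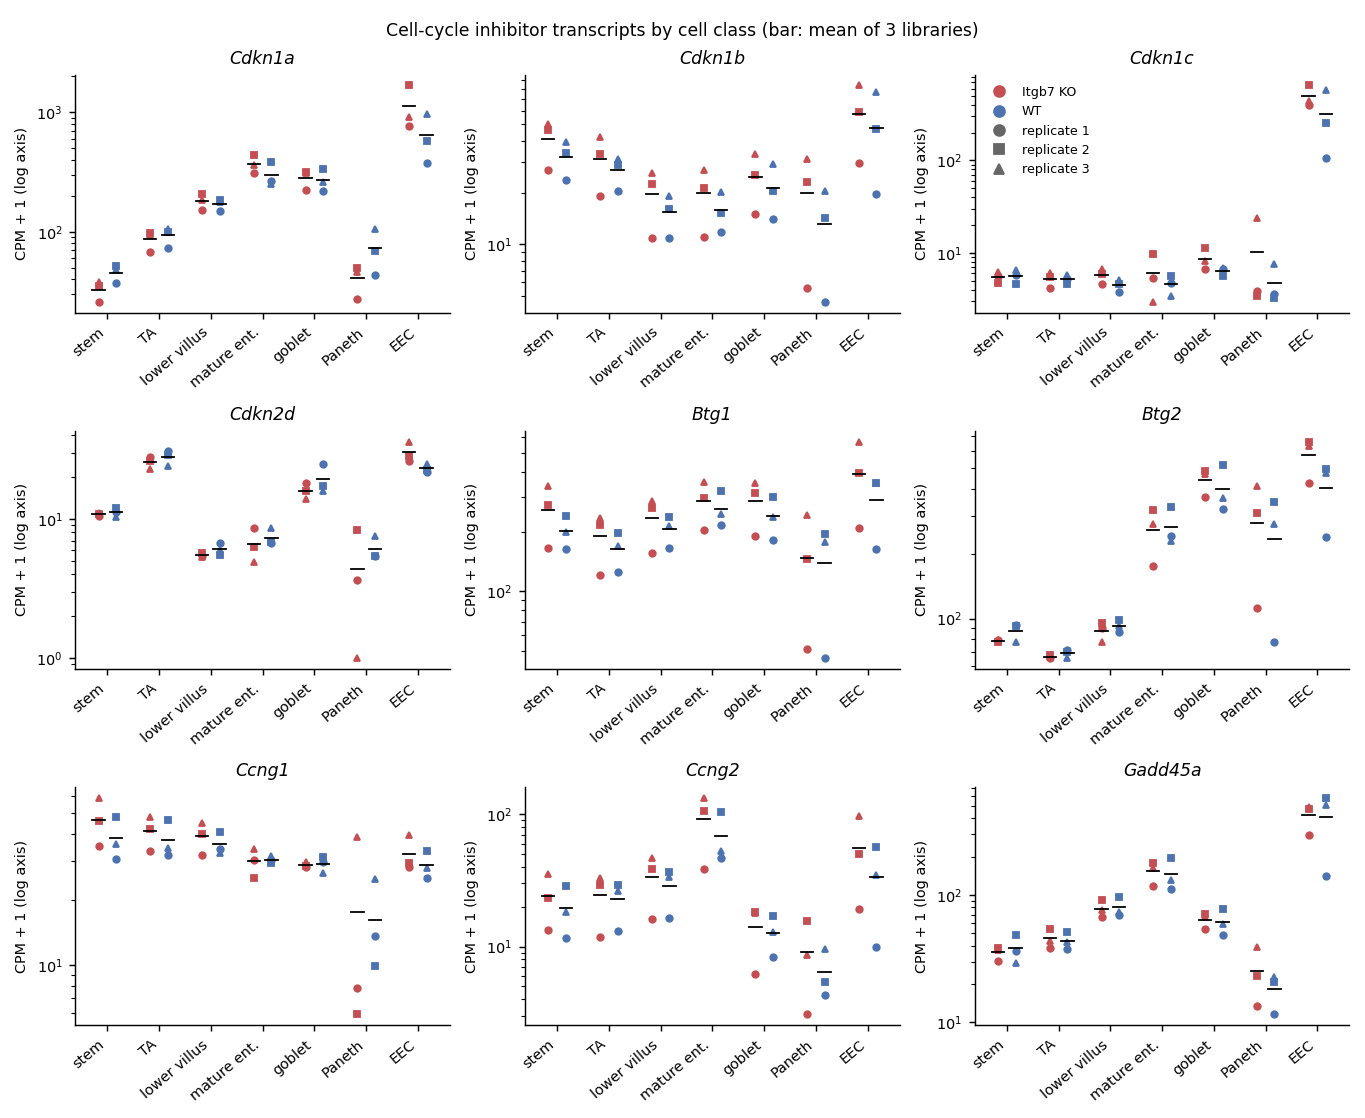
Level of each of the 9 genes (CPM + 1, log axis) in 7 cell classes, with 1 point per library, Itgb7 KO in red left of WT in blue, a different symbol for each replicate number, and a bar at the mean of 3 libraries. Cdkn1a, Btg2, Ccng2 and Gadd45a are higher in mature enterocyte-like (mature ent.) than in stem-like cells, Cdkn2d is at a mean of 25.7 CPM both in transit-amplifying-like (TA) and in enteroendocrine-like (EEC) cells, and Cdkn1c stands out in EEC cells.

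In all, 5 of 9 members were higher and 3 were lower in mature enterocyte-like than in stem-like cells of every library. Over all 11153 genes measured in both classes, 26.5% were higher and 46.2% lower in every library, and the medians were 0.27 for the members and -0.31 for all genes. The members were chosen by this contrast, so nothing is read from the count. With the 9 members left out of the genes used for clustering, the mature class held 3277 cells in place of 1164, Btg1 lost its direction (-0.00) and 4 members were higher.

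Genes of the same pathways, taken from lists drawn up with earlier results of these data known, put these levels in context. Of 15 cyclins and cyclin-dependent kinases measured, 14 were lower and 0 higher in mature enterocyte-like cells of every library, with a median of -3.06. Ccnd1, a D-type cyclin that partners CDK4, averaged 17.0 ± 9.91 CPM there and 156 ± 19 CPM in stem-like cells, and its partner kinase Cdk4 averaged 71.5 ± 17.9 and 447 ± 31.6 CPM. All 15 proliferation genes were lower, with a median of -3.66.

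Among 16 related inhibitors outside the 9 members, 7 were higher and 6 lower. Cdkn2b, an INK4 inhibitor like Cdkn2d, was at 172 ± 32.5 CPM in mature enterocyte-like and 8.77 ± 3.06 CPM in stem-like cells, higher by 4.19 ± 0.36, and Tob1, of the same family as Btg1, was higher by 1.93 ± 0.13. Of 24 p53 pathway genes, 9 were higher and 11 lower, with a median of -0.26 close to that of all genes, and Trp53 itself averaged 28.4 ± 7.02 CPM in mature enterocyte-like and 181 ± 10.9 CPM in stem-like cells. Among 19 genes that degrade or regulate the inhibitors, 2 were higher and 14 lower: Klf6, a transcription factor, was higher by 1.93 ± 0.40, whereas Cks2 (-2.03 ± 0.35) and Klf5 (-0.29 ± 0.11) were lower.

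Genes of the immediate early response, which tissue dissociation also induces, went with the members that were higher. Of 17 such genes 15 were higher in mature enterocyte-like cells of every library and 0 lower, with a median of 1.22. Fos averaged 825 ± 326 CPM in mature enterocyte-like and 354 ± 143 CPM in stem-like cells. Btg2 and Gadd45a are known to respond to such stress, and the part of dissociation in their levels was not tested.

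Within the villus, lower-villus and mature enterocyte-like cells were ordered in each library by the share of tip landmark UMIs among tip and bottom landmark UMIs and cut into 5 bins of equal size, with 6159 of 7107 cells holding the 10 landmark UMIs required. Cdkn1a averaged 162, 177, 191, 219 and 292 CPM from the first bin to the last, and Gadd45a averaged 68.8, 72.6, 87.6, 104 and 136 CPM. Both were higher in the last bin than in the first in 6 of 6 libraries, by 0.83 ± 0.31 and 0.96 ± 0.14. Btg2 averaged 213 ± 53 CPM in the last bin and 82.5 ± 6.70 CPM in the first, and Ccng2 averaged 70.1 ± 35.7 and 28.3 ± 18.2 CPM, each 1.32 higher on the log2 scale (SD 0.43 for Btg2 and 0.47 for Ccng2). Ccng1 was higher in the last bin in 1 of 6 libraries, and Cdkn1b, Cdkn1c and Cdkn2d in 3, 2 and 4.

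The score is not a position along the villus. It rested on the tip landmarks Apoa4 and Creb3l3, since Nt5e, Enpp3, Ada and Slc28a2 averaged at most 3.97 CPM in any bin, and on the bottom landmarks, of which Rbp7 was lower in the last bin (-1.58 ± 0.40) while Il18 was higher by 1.67 ± 0.37. Mature enterocyte-like cells made up 1.87% of the cells of the first bin and 61.1% of the last. Fos and Jun, of the immediate early list, were higher in the last bin too, by 0.94 ± 0.32 and 1.138 ± 0.32, and their part in the members' levels was not tested.

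**Figure D2:**
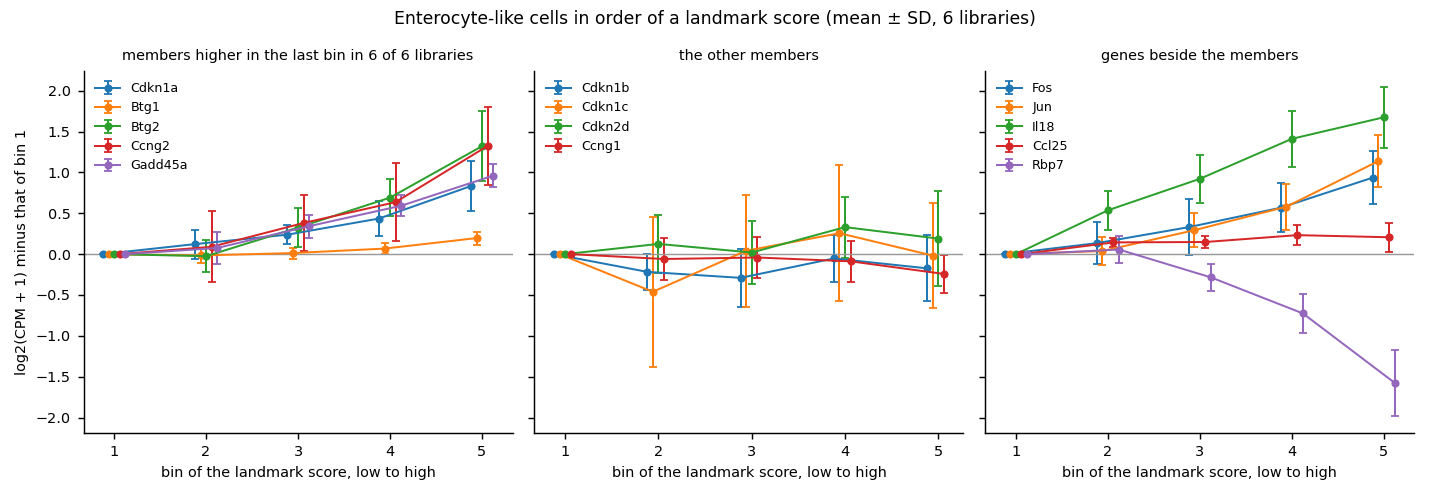
Difference in log2(CPM + 1) from the first of 5 bins of a landmark score in enterocyte-like cells (mean ± SD of 6 libraries), for the members higher in the last bin in all 6 libraries (left), the other members (middle) and 5 other genes (right). Btg2 and Ccng2 reach 1.32 in the last bin, Il18 and the immediate early genes Fos and Jun also lie above 0 there, and Rbp7 lies below.

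In the secretory branch, enteroendocrine-like cells, which carry hormone genes, had the highest mean level of 6 of the 9 members among the 7 classes compared. Only for Cdkn1a, Cdkn1c and Gadd45a was the lead over the next class beyond 2 SD. The lead was within its spread for Cdkn1b over stem-like cells (0.40 ± 0.44), Btg1 over mature enterocyte-like cells (0.23 ± 0.39) and Btg2 over goblet-like cells (0.17 ± 0.35). Cdkn1c was at 105, 420 and 648 CPM (lowest, median and highest of 6 libraries) in enteroendocrine-like cells and at 3.15, 4.31 and 5.12 CPM in transit-amplifying-like cells. The difference was 6.08 ± 0.93 on the log2 scale, or 67.5-fold in CPM + 1, where the added 1 makes the fold smaller than in CPM. The next highest of those classes, Paneth-like and goblet-like cells, averaged 6.55 and 6.52 CPM. Outside enteroendocrine-like cells, Cdkn1c stood at 0.85% to 4.004% of its enteroendocrine-like level, and the summed enteroendocrine markers at 0.22% to 2.12% of theirs. The part of free RNA in that low level was not tested. An overlapping gene on the other strand, Gm44732, shares its place on chromosome 7, and without a stated counting strand the counts of Cdkn1c are uncertain to that extent.

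Cdkn1a was at 378, 839 and 1675 CPM in enteroendocrine-like cells and at 67.2, 95.1 and 105 CPM in transit-amplifying-like cells. Gadd45a was at 141, 485 and 581 CPM in enteroendocrine-like cells and at 36.6, 42.3 and 53.6 CPM in transit-amplifying-like cells. All 6 libraries were higher in both genes, by 3.16 ± 0.64 and 3.09 ± 0.63, and each was also above its level in mature enterocyte-like cells of the same library, by 1.27 ± 0.63 and 1.37 ± 0.55. Btg2 was 2.77 ± 0.56 higher and Btg1 0.87 ± 0.30 higher, while Cdkn1b was higher in 5 of 6 libraries (0.73 ± 0.46), Cdkn2d in 3 (-0.01 ± 0.40) and Ccng1 in 0 (-0.36 ± 0.11).

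Goblet-like cells, the mucus makers, had a different profile, led by Btg2. It was at 320, 416 and 514 CPM in goblet-like cells and at 64.7, 66.1 and 70.5 CPM in transit-amplifying-like cells, 2.60 ± 0.28 higher. Cdkn1a was 1.62 ± 0.16 higher, at 277 ± 50.3 CPM, and Btg1, Cdkn1c and Gadd45a were higher by about 0.5 (0.56 ± 0.06, 0.50 ± 0.31 and 0.48 ± 0.11). The other 4 were lower in every library, and Ccng2 the most (-0.82 ± 0.14), at 12.5 ± 5.21 CPM. Against mature enterocyte-like cells, where Ccng2 averaged 79.3 ± 39.1 CPM, goblet-like cells differed by -2.54 ± 0.29.

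Paneth-like cells, which make antimicrobial peptides at the crypt base, had lower levels of 6 members than transit-amplifying-like cells in every library, with only 22 to 103 cells in a library. Ccng2 differed there by -1.70 ± 0.52 and Gadd45a by -1.141 ± 0.54. The median was -1.09 for the members and -1.31 over all 10945 genes measured, so most genes were lower there. The part of Paneth peptide RNA, which takes up some of each total, was not tested. Btg2 was higher in 6 of 6 libraries, by 1.68 ± 0.99, and the lowest of these differences, 0.77 in Itgb7 KO library 1 and 0.13 in WT library 1, were in the pair that holds the most Paneth peptide RNA. Tuft-like cells reached 20 cells in only 2 libraries, both Itgb7 KO, where Cdkn1c was at 22.7 and 65.2 CPM and Cdkn1a at 295 and 301 CPM.

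**Figure D3:**
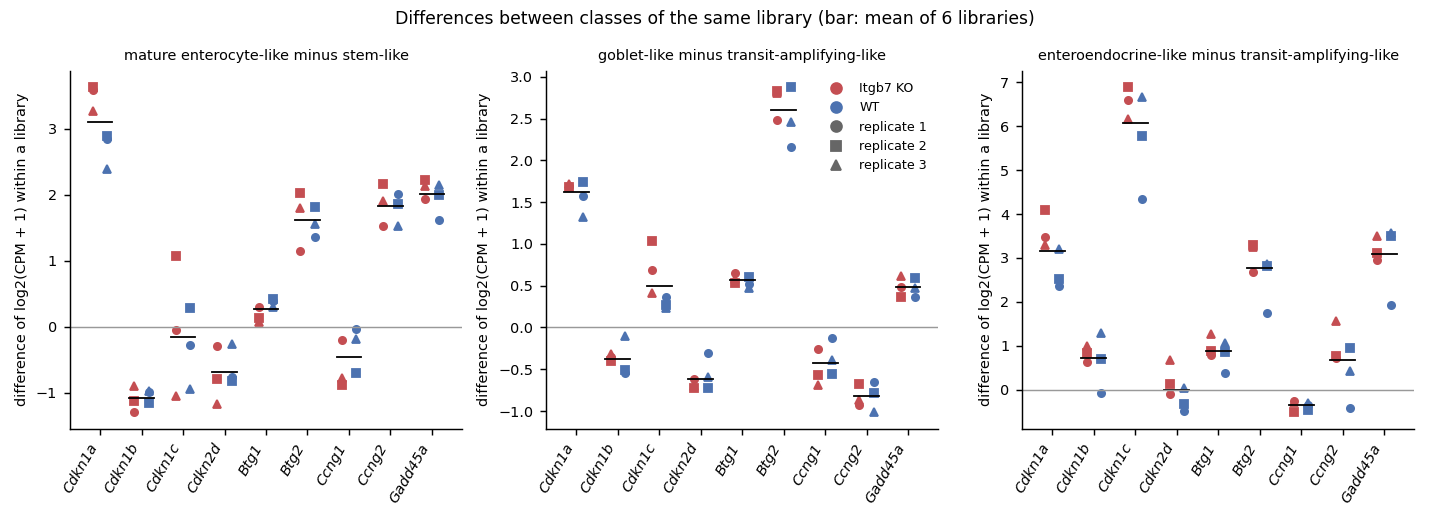
Difference in log2(CPM + 1) between classes of the same library for each of the 9 genes, with 1 point per library (Itgb7 KO in red left of WT in blue) and a bar at the mean of 6. Cdkn1a leads in mature enterocyte-like against stem-like cells (3.10), Btg2 in goblet-like against transit-amplifying-like cells (2.60) and Cdkn1c in enteroendocrine-like against transit-amplifying-like cells (6.08).

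Of the 9 members 5 were higher and 4 lower in goblet-like than in transit-amplifying-like cells of every library, where 21.3% of 11127 genes were higher and 55.6% lower. For enteroendocrine-like cells the counts were 5 higher and 1 lower, where 26.5% of 12050 genes were higher and 20.2% lower. For Paneth-like cells they were 1 higher and 6 lower, where 2.61% of 10945 genes were higher and 58.9% lower. Nothing is read from these counts, since levels in secretory cells chose the members. All 17 immediate early genes were higher in goblet-like cells of every library, with a median of 1.86, and 12 of 17 in enteroendocrine-like cells, with a median of 0.83.

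The clusters inside a class spread further than the classes. Cdkn2d was highest in the transit-amplifying-like cluster led by Hist1h2ap, a histone gene, and by Ube2c and Nusap1, genes of late division, at 52.1 ± 4.99 CPM. It was at 4.005 ± 2.82 CPM in the cluster led by Ung, Hells and Uhrf1, genes of DNA replication, and lowest, at 3.09 ± 1.26 CPM, in the stem-like cluster led by Gkn3, Lgr5 and Cdca7. Among goblet-like clusters it was highest, at 37.6 ± 6.77 CPM, in the one led by Atoh1, the factor that starts the secretory fate.

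Btg2 was highest of all in a goblet-like cluster led by Cldn4, Thbs1 and Serpina1b, at 835 ± 145 CPM, and Dusp1, an immediate early gene, was among the top 10 genes of that cluster. It was lowest in the replicating cluster led by Rrm2, Tcf19 and Ccne2, at 42.3 ± 10.52 CPM, where Ccng2 stood at 6.98 ± 1.77 CPM. Cdkn1a was at 36.4 ± 11.9 CPM in another replicating cluster, led by 2810417H13Rik, Lig1 and Esco2, and this was its lowest mean. Single libraries of the stem-like clusters ran from 19.96 to 58.6 CPM, so this transit-amplifying-like cluster was not set apart from them.

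The 641 enteroendocrine-like cells fell in 2 clusters, led by Chgb, Tac1 and Chga (439 cells, with Neurog3 among the top 10 genes) and by Gcg, Cck and Gip (202 cells, 5 libraries). Cdkn1a averaged 986 ± 567 CPM in the Chgb-led and 799 ± 226 CPM in the Gcg-led cluster, Gadd45a 546 ± 202 and 148 ± 49.3 CPM, and Cdkn1c 364 ± 192 and 578 ± 134 CPM. With the 9 members left out of the clustering genes the class held 806 cells and was divided differently, into a cluster of 296 cells led by Neurog3, Insm1 and Sox4, genes of their progenitors, and one of 510 cells led by Cck, Gcg and Chgb, which encode hormones and a granule protein. Cdkn1c averaged 523 ± 259 CPM in the hormone-led cluster and 55.4 ± 39.6 CPM in the Neurog3-led cluster, and Cdkn1a averaged 1121 ± 560 and 163 ± 43.9 CPM. Cdkn2d averaged 31.8 ± 6.96 and 5.43 ± 3.40 CPM, and the lower of these rests on few UMIs. Gadd45a averaged 402 ± 194 CPM in the hormone-led and 246 ± 70.4 CPM in the Neurog3-led cluster. How the members order between clusters of this class therefore depends on the clustering.

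The genes most like each member were found by the Pearson correlation of log2(CPM + 1) over 44 library and class sums from 8 classes, among 5111 genes with a mean of at least 20 CPM. The sums share libraries, depths and clustering, so the coefficients are a description. Closest to Cdkn1c were Scg2 (0.943), Bex2 (0.941) and Cpe (0.931), of which Scg2 and Cpe encode proteins of hormone granules. Closest to Cdkn1a were Kdm7a (0.915), Atp6v0b (0.886) and Sepp1 (0.866), and Kdm7a was also among the closest to Gadd45a (0.889) after Gabarapl2 (0.925) and Gstt1 (0.890). Btg2 was closest to Rhob (0.924), Trib1 (0.916) and Siah2 (0.889). The closest genes were Scoc for Ccng2 (0.942), Matr3 for Cdkn1b (0.945), Rab5a for Btg1 (0.944), Fam175b for Ccng1 (0.925) and Gpat4 for Cdkn2d (0.833). Among the members, Cdkn1a and Gadd45a were the most alike pair, with 0.895.

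Between genotypes, few members separated within a class. After scaling for RNA composition, Cdkn1a was lower in stem-like and Paneth-like cells of the Itgb7 KO libraries, and Cdkn2d was higher in their enteroendocrine-like cells. In plain CPM both Cdkn1a comparisons overlapped. Cdkn1c was higher over all epithelial cells. Of 63 pairs of a member and a class, 57 passed the filter on low counts, and in Paneth-like cells only Cdkn1a, Btg1 and Btg2 did. Scaled by the trimmed mean of M values (TMM, which corrects for differences in RNA composition), the 3 Itgb7 KO levels did not overlap the 3 WT levels in 3 of the 57 pairs, or 5.26%, where 7.62% of 64179 pairs of a gene and a class did not overlap. By edgeR's quasi-likelihood test 0 members were called in any class or over all epithelial cells, where 0.00644% of 77672 gene tests were called at an adjusted p under 0.05 (5 calls, all of Agpat4). An unadjusted p under 0.05 came with 3 of the 66 member tests (4.55%), where it came with 2.89% of the 77672 tests. DESeq2 called 1 member, Cdkn1c over all epithelial cells, where it called 0.178% of 13493 genes. The members were picked partly by this contrast, and Cdkn1a and Cdkn1c for it, so nothing is read from these counts or calls.

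In stem-like cells Cdkn1a was at 25, 34.0 and 36.7 CPM in Itgb7 KO libraries 1, 2 and 3, against 36.1, 50.5 and 46.6 CPM in WT. The highest Itgb7 KO value lies just above the lowest WT value, and after TMM scaling (26.3, 31.8 and 36.7 against 38.2, 49.0 and 46.4) the groups separate, as 4.45% of 11081 genes did with Itgb7 KO lower. The edgeR log2 fold change was -0.50 (SE 0.16). Between libraries with neighbouring serial numbers it was -0.51 (1 Itgb7 KO and 1 WT library) and -0.50 (2 and 1). The remaining library, WT library 3, has no Itgb7 KO library in its series and is left out of both values.

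The stem-like clusters are given one by one, with no test between them. In the cluster led by Ascl2, Lgr5 and Rgcc, Cdkn1a was at 19.96, 34.7 and 35.5 CPM in Itgb7 KO, against 39.8, 49.8 and 42.1 CPM in WT. In the cluster led by Ifitm3, Cdca7 and Amica1 it was at 26.8, 39.9 and 28.5 CPM in Itgb7 KO, against 39.96, 42.4 and 49.998 CPM in WT. Neither overlaps, the second only just. In the cluster led by Gkn3, Lgr5 and Cdca7 the values were 32.3, 25.9 and 45.2 CPM in Itgb7 KO, against 26.0, 58.6 and 47.7 CPM in WT, which overlap, with WT library 1 (71 UMIs) among the lowest.

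In transit-amplifying-like and enterocyte-like cells the genotypes overlapped in Cdkn1a. Its log2 fold change was -0.12 (SE 0.16) in transit-amplifying-like, 0.10 (SE 0.13) in lower-villus enterocyte-like and 0.33 (SE 0.20) in mature enterocyte-like cells, each within 2 SE of 0. In enteroendocrine-like cells it was at 762, 1675 and 915 CPM in Itgb7 KO, against 378, 572 and 973 CPM in WT, a log2 fold change of 0.77 (SE 0.38). WT library 3 was above 2 of the 3 Itgb7 KO libraries, and without it the fold change was 1.142 and the groups did not overlap, as in 7.86% of 8364 genes with Itgb7 KO higher when that library is left out. Within the 2 series it was 1.01 and 1.11, but these also leave out WT library 3 and are not separate from that run.

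Set against the stem-like level of the same library, Cdkn1a stood further up in Itgb7 KO. Mature enterocyte-like cells stood above stem-like cells by 3.58, 3.64 and 3.27 on the log2 scale in Itgb7 KO, against 2.85, 2.89 and 2.39 in WT. Goblet-like cells stood above by 3.09, 3.18 and 3.04 in Itgb7 KO, against 2.57, 2.71 and 2.47 in WT. Enteroendocrine-like cells stood above by 4.88, 5.58 and 4.60 in Itgb7 KO, against 3.35, 3.48 and 4.36 in WT. None of these overlap, nor do the steps to transit-amplifying-like and lower-villus enterocyte-like cells. The Itgb7 KO step was the larger without overlap in 2.74% of 11153 genes for mature enterocyte-like, 3.68% of 11263 for goblet-like and 4.37% of 12093 for enteroendocrine-like cells, and in 5.45% of 11135 and 3.68% of 11148 for the other 2 steps. All 5 steps share 1 stem-like value in a library, so they are not separate results. Over 81 pairs of a member and a class difference, 11 did not overlap, 8 with the Itgb7 KO difference larger, where 8.86% of 101543 pairs of a gene and a class difference did not.

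**Figure D4:**
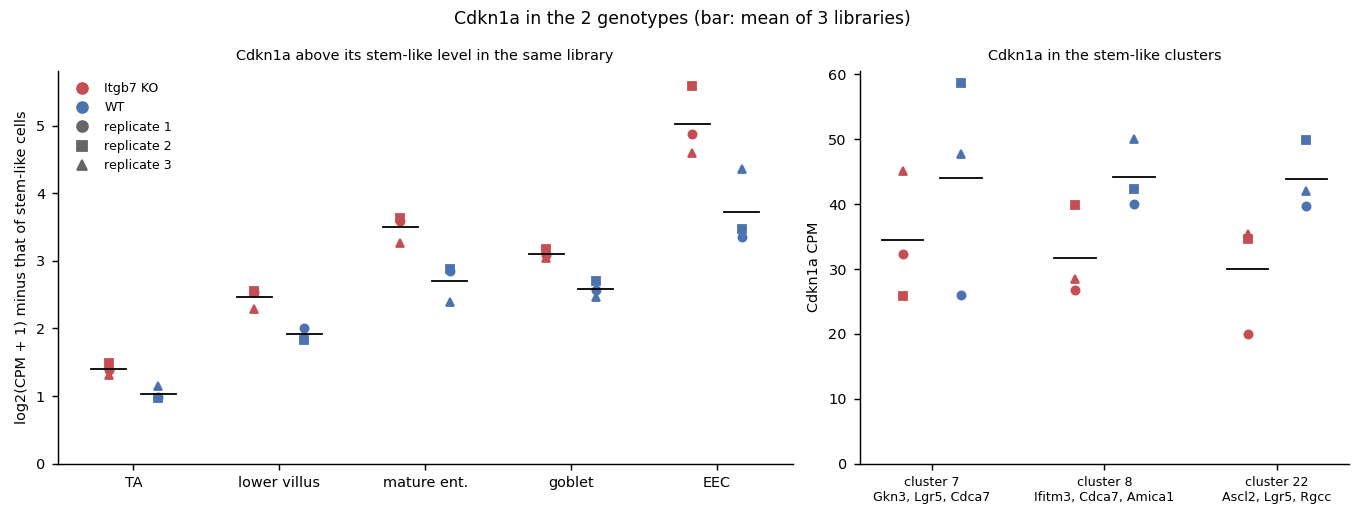
Left, Cdkn1a in log2(CPM + 1) above its stem-like level in the same library, in 5 classes; right, Cdkn1a CPM in 3 stem-like clusters named by their leading genes, with 1 point per library, Itgb7 KO in red left of WT in blue, and a bar at the mean of 3. The Itgb7 KO points lie above the WT points in all 5 classes on the left, and on the right they overlap in the cluster led by Gkn3 and not in the other 2.

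In Paneth-like cells Cdkn1a was at 26.6, 49.2 and 45.4 CPM in Itgb7 KO, against 42.6, 68.7 and 104 CPM in WT, which overlap. After TMM scaling the values were 51.7, 44.0 and 31.6 in Itgb7 KO, against 81.5, 52.4 and 81.5 in WT, which just separate, as 2.5% of 3085 genes did in this direction. The scaling is large here, with factors of 0.53 to 1.55, and the smallest sum, in Itgb7 KO library 3, holds 6 Cdkn1a UMIs. The log2 fold change was -0.69 (SE 0.28), with -0.66 and -0.53 within the 2 series.

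Cdkn1c was the member with the largest difference over all epithelial cells. It was at 13.5, 17.7 and 15.1 CPM in Itgb7 KO libraries 1, 2 and 3, against 5.95, 7.73 and 11 CPM in WT, with no overlap, as in 3.31% of 13493 genes with Itgb7 KO higher. The log2 fold change was 0.88 (SE 0.18), with 1.06 and 0.99 within the 2 series, which leave out WT library 3, the highest of WT. Without enteroendocrine-like cells it was at 4.10, 5.53 and 5.77 CPM in Itgb7 KO, against 4.20, 4.04 and 4.95 CPM in WT, which overlap, and the log2 fold change was 0.19. With a UMI minimum of 13621 for each cell it was 0.45, also with overlap, but that minimum drops Itgb7 KO library 3 (17 cells left) and leaves 0 enteroendocrine-like cells in WT library 3 and 6 in Itgb7 KO library 2.

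Both the number of enteroendocrine-like cells and their Cdkn1c level bear on the sum. These cells made up 2.89%, 3.39% and 4.01% of epithelial cells in Itgb7 KO, against 1.58%, 2.25% and 1.99% in WT, without overlap. They held 70.3%, 69.3% and 62.5% of Cdkn1c UMIs in Itgb7 KO, against 30.7%, 48.5% and 55.5% in WT. The 95% Wilson intervals, which cover counting error only, reach at most 0.723 percentage points from the shares of cells and 4.96 from the shares of UMIs. Inside these cells Cdkn1c was at 400, 648 and 440 CPM in Itgb7 KO, against 105, 254 and 584 CPM in WT, which overlap, for a log2 fold change of 0.66 (SE 0.49). Without WT library 3 it was 1.42, and without WT library 1 it was 0.29. Within the 2 series, which also leave out WT library 3, it was 1.92 and 1.07.

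Where the members were left out of the clustering, the hormone-led cluster made up 63.0%, 67.3% and 70.5% of enteroendocrine-like cells in Itgb7 KO, against 55.1%, 54.1% and 58.7% in WT, with intervals reaching up to 13.8 points. Immediate early genes summed to 2772, 5157 and 7252 CPM in the enteroendocrine-like class in Itgb7 KO, against 2009, 4249 and 3554 CPM in WT. Library 1 of each genotype was lowest in that sum and in several members here. The part of maturity or of that response in the levels of Cdkn1a and Cdkn1c was not tested.

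**Figure D5:**
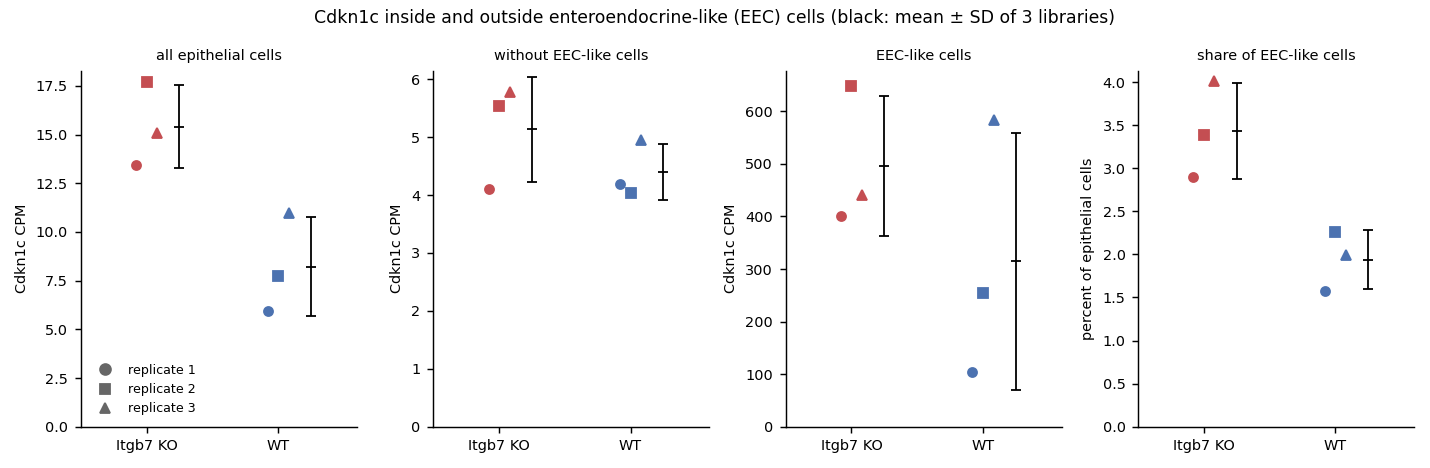
Cdkn1c CPM over all epithelial cells, without enteroendocrine-like (EEC) cells and inside them, and the share of epithelial cells that were enteroendocrine-like, with 1 point per library, Itgb7 KO left of WT, and black marks for the mean ± SD of 3 libraries. The groups separate over all cells (13.5 to 17.7 against 5.95 to 11 CPM) and in the share of cells, and overlap in the other 2 panels.

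Cdkn2d in enteroendocrine-like cells was at 25, 27.5 and 35.1 CPM in Itgb7 KO, against 21, 21.7 and 23.7 CPM in WT. The groups did not overlap, as in 2.72% of 7800 genes with Itgb7 KO higher, but the gap is narrow, and the sums rest on 14 to 34 UMIs a library. The log2 fold change was 0.32 (SE 0.27). Cdkn1b, Btg1, Btg2, Ccng1, Ccng2 and Gadd45a overlapped between genotypes in every class where they were tested. Their log2 fold changes outside enteroendocrine-like and Paneth-like cells ran from -0.18 (SE 0.13) for Btg2 in stem-like cells to 0.48 (SE 0.41) for Ccng2 in mature enterocyte-like cells.

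Of 958 edgeR tests of genes of 11 related lists, over 7 classes and all epithelial cells, 0 were called, with 107 (11.2%) below an unadjusted p of 0.05, where 2.89% of all gene tests were. With DESeq2 12 were called. The lists were drawn up with earlier results of these data known, and the tests repeat the same genes over classes. Nothing is therefore read from these shares and calls, or from the counts by sign that follow. Over all epithelial cells the median log2 fold change was -0.00 for 25 p53 pathway genes, -0.03 for 15 cyclins and cyclin-dependent kinases and 0.03 for 16 related inhibitors, where that of all genes was -0.01. In enteroendocrine-like cells the 12 cyclins and kinases tested had a median of -0.41 and 0 of them were positive, and the 15 proliferation genes had a median of -0.41 with 1 positive. The 16 immediate early genes had a median of 0.68 there with 15 positive, and in stem-like cells the 17 tested had a median of -0.29 with 5 positive. The median of all genes was -0.009 in enteroendocrine-like and 0.002 in stem-like cells. Genes of a list come from the same libraries, so their signs are not separate results. All 14 genes of the interferon response were positive over all epithelial cells, with a median of 1.16, and summed to 554 to 740 CPM in Itgb7 KO, against 315 to 411 CPM in WT. The part of these responses in the members' levels was not tested.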

How the data were processed

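The authors deposited, for each of 6 libraries, raw UMI counts per gene and cell barcode made with bcl2fastq 2.17.1.14 and Cell Ranger 2.1.1 on mm10, and used Seurat, per the submitters' processing notes. The counting strand, the annotation and any filter before deposit are not given in the sources used here. The members and gene lists were chosen with earlier results of these data known.

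From the 26153 deposited barcodes, cells with at least 500 genes, 1000 UMIs and at most 25% mitochondrial UMIs were kept. Scrublet scores were ranked in each library and the highest, 0.8% per 1000 barcodes, were removed as doublets (972), because its automatic threshold marked too few. The remaining 25073 cells were clustered with scanpy 1.11.5 and leidenalg 0.10.2 (2000 variable genes, 30 components corrected by library, 15 neighbours, resolution 1.5), and 26 clusters were named by fixed markers among their top genes. The clusters led by S100g and by mt-Nd1 stayed unnamed. The 9 members are the genes named by rule; other genes are the closest by correlation, the leading genes of clusters and the most abundant of each list.

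Counts were summed per library and class of at least 20 cells. Genotypes were compared with edgeR 4.0.16 (TMM, filterByExpr, quasi-likelihood, Benjamini-Hochberg adjustment over all genes of a class), with DESeq2 1.42.0 as an alternative. Only the edgeR fit was tested on simulated data, drawn from the transit-amplifying-like sums. Class differences used log2(CPM + 1) within a library, and a difference is called beyond its spread where its mean exceeds 2 SD. Nothing says whether libraries came from separate mice, so p-values measure the spread between these libraries only. Deviations from the genotype means correlated at 0.877, 0.620 and 0.532 between libraries of the same number, for numbers 1, 2 and 3 over 5123 genes. Only the pair numbered 1 stood apart in this. Itgb7 KO library 3 correlated at 0.768 with WT library 2, above its value with WT library 3, and Itgb7 KO library 2 correlated at 0.521 with WT library 3. With the number as a block 24 gene and class pairs were called, against 5 without it, with no member among them. Gene positions are from mm10 (GENCODE M21). Depth limits small sums most: median UMIs per cell ran from 6080 to 22384.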

Additional observations from a re-analysis of the deposited data

How the results depend on the processing

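The count of gene and class pairs called between genotypes (5) depended most on the model: it was 68 with DESeq2, 23 without the filter on low counts, 24 with the replicate block, 182 with serial groups as a block, 3 at a clustering resolution of 1.0 and 0 with a UMI minimum per cell, which leaves no Paneth-like or enteroendocrine-like comparison. Leaving out 1 library, or both numbered 1 (28, an alternative chosen after seeing the data), gave 0 to 28. The serial block called Cdkn1a (log2 fold change 1.05) and Cdkn1c (1.39) in enteroendocrine-like cells and DESeq2 called Cdkn1c over all epithelial cells; both genes were picked partly for this contrast, so these calls support nothing. The 3 member and class pairs without overlap were 1 without TMM scaling, 5 at resolution 1.0, 6 with the members left out of clustering and 4 to 23 with libraries left out, where the share over all genes was 7.62%, 7.4%, 7.66%, 7.87% and 13.1% to 43.7%, in that order from the unaltered fit (the highest without both libraries numbered 1, and 33.5% without Itgb7 KO library 1 alone). The log2 fold change of Cdkn1a in stem-like cells ran from -0.61 to -0.39 over the alternative runs. These reuse the same libraries and the gene was picked partly for this contrast, so its constant sign supports nothing. In plain CPM its groups overlapped there. Cdkn1c over all epithelial cells was 0.45 with the UMI minimum, which drops Itgb7 KO library 3, and Cdkn2d overlapped in enteroendocrine-like cells with the members left out of clustering. Calls among the other lists (0) were 12 with DESeq2, 7 without the filter, 2 with the replicate block, 23 with the serial block and 0 to 1 with libraries left out. Of 295 recomputed member fold changes 290 moved by less than the spread between replicates, and of 108 each for mature, goblet-like and enteroendocrine-like differences 97, 97 and 98 did. The sign changed in 16 of the fold changes and in 3, 0 and 6 of the differences, in that order. The cause was not tested for any of these, and sums under 50 UMIs, as for Cdkn2d, limit what the depth can show.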
